A study of Mus musculus with 60 samples.

Results

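The small leucine-rich proteoglycans are secreted matrix proteins that sit on collagen fibrils, and 8 of their genes were followed here, taken by gene symbol: Dcn, Bgn, Aspn, Lum, Fmod, Prelp, Ogn and Podn. All 8 were found among the 54532 gene rows of the deposited expression table. The table holds 60 poly(A) RNA-seq libraries, made from 6 tissues of each of 10 male, wild-type C57BL/6 mice: white fat from the inguinal (iWAT) and the epididymal (eWAT) depot, brown fat (BAT), liver (Liv), skeletal muscle (SkM) and hypothalamus (Hyp). SFN mice (n = 5, mice 6 to 10) received sulforaphane, an isothiocyanate of cruciferous plants, at 5 mg/kg by daily intraperitoneal injection for 1 week, and vehicle mice (n = 5, mice 1 to 5) received injections of vehicle on the same schedule. All mice of both groups carried diet-induced obesity, with a high-fat diet given for 16 to 20 weeks starting at 12 weeks of age, and were about 28 weeks old. No lean or untreated mouse is part of the comparison, and RNA came from whole tissue, so the libraries mix every cell type of the organ.

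Each of these proteins has a curved core of leucine-rich repeats that binds collagen, and through it the family controls how thick fibrils grow and how they are spaced. The family is divided into classes by sequence. Class I holds Dcn (decorin), Bgn (biglycan) and Aspn (asporin), of which the first pair carry chondroitin or dermatan sulfate chains and asporin carries a run of aspartate residues instead. Decorin and biglycan also bind TGF-beta, and soluble biglycan is a ligand of Toll-like receptors. Class II holds Lum (lumican), Fmod (fibromodulin) and Prelp (prolargin), where lumican and fibromodulin can carry keratan sulfate and share a site on collagen I, and prolargin binds heparin through a basic N-terminus. Class III includes Ogn (osteoglycin, or mimecan), and class V includes Podn (podocan). Fibroblasts and related stromal cells are the usual source of this family: adipose stromal cells, fibro-adipogenic cells and tendon cells in muscle, stellate cells and portal fibroblasts in liver, and the fibroblasts of the meninges around the brain.

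Values are deposited FPKM, in which fragment numbers are divided by transcript length and by a size factor for each library. The libraries held 14802638 to 25258292 assigned reads. The defining markers of each labelled tissue were all at 1 FPKM or more in all 10 libraries of that tissue (8 neuronal genes in Hyp, 7 adipocyte genes in iWAT and in eWAT, 7 brown adipocyte genes in BAT, 8 hepatocyte genes in Liv and 8 myofibre genes in SkM). Some libraries stood apart within their tissue, in both groups. In Hyp, the summed level of 7 meningeal fibroblast genes was 17.3 FPKM in SFN mouse 6 and 19.4 FPKM in vehicle mouse 1, against at most 5.21 FPKM elsewhere. In BAT, the summed myofibre genes reached 2957 FPKM in SFN mouse 7 and 3377 FPKM in vehicle mouse 3, against at most 617 FPKM elsewhere. The summed tendon cell genes reached 14.9 and 12.4 FPKM in vehicle mice 2 and 3, against at most 5.60 FPKM elsewhere in BAT. Only 2 of the 8 tendon cell genes reached a mean of 1 FPKM in BAT. Their sum was also 18.6 to 59.3 FPKM in eWAT, where 1 of the 8 did.

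Several members neighbour each other in the mouse genome (coordinates on GRCm38). Dcn (chr10:97479609-97518143) and Lum (chr10:97565128-97572703) lie on the plus strand 47.0 kb apart, and Prelp (chr1:133910304-133921414, minus strand) lies 115.8 kb from Fmod (chr1:134037254-134048277, plus strand). Aspn (chr13:49544443-49567565) and Ogn (chr13:49608046-49624501), both on the plus strand, flank another family gene, Omd (osteomodulin). Bgn (chrX:73483602-73495933, plus strand) and Podn (chr4:108014791-108096445, minus strand) stand alone. The exons of Prelp share 350 bases with the antisense gene Gm15851 and those of Aspn share 7 bases with Cenpp, and without a stated counting strand their reads cannot be told apart. Gm15851 was at 0.929 to 3.56 FPKM in iWAT and at 0 in all libraries of Liv and SkM, and Cenpp at no more than 0.716 FPKM in any tissue.

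The promoters of 4 members are printed here. Of these, Bgn, Fmod and Ogn fell with SFN in liver, while Aspn was at or near 0 there and was not tested. RefSeq promoters (build GRCm38.p6, 250 bases before to 50 after the transcription start) matched 6 of the 8 members, with no entry for Lum and Dcn. The windows are chrX:73483351-73483650 for Bgn, chr1:134037004-134037303 for Fmod, chr13:49607765-49608064 for Ogn and chr13:49544193-49544492 for Aspn, all on the plus strand. Capitals mark matches on either strand to the motifs searched, which were the antioxidant response element core TGACNNNGC, the AP-1 motif TGANTCA, the Sp1 box GGGCGG, the TATA box TATAAA and the SMAD motif CAGACA.
Bgn: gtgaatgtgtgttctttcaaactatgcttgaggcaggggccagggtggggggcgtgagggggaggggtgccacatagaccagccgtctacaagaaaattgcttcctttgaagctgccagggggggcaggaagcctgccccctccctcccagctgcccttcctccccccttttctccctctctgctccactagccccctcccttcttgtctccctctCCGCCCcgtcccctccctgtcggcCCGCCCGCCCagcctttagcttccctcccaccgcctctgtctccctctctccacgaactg
Fmod: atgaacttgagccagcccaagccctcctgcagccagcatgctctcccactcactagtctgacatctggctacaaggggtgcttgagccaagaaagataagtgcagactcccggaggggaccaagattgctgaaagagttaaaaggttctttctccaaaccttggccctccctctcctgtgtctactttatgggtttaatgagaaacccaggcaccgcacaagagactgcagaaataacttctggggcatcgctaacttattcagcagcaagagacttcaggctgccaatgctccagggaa
Ogn: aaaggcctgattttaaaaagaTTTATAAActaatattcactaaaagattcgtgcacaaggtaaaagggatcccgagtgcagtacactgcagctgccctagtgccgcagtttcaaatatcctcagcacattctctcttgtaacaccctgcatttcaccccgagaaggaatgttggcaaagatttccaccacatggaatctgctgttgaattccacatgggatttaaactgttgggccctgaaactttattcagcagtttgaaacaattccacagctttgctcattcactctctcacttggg
Aspn: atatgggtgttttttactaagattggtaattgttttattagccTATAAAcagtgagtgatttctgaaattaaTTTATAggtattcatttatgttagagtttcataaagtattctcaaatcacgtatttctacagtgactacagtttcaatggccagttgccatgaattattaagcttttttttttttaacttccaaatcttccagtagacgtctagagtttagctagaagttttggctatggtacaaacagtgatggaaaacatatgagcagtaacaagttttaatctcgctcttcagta
The Bgn window held 3 Sp1 boxes, starting 34, 10 and 6 bases before the start, the last pair of which overlap, and 35.7% of all 32851 promoters hold that box. The Ogn window held 2 overlapping TATA letter runs and the Aspn window 2 separate ones, at least 178 bases before the start in each case, a run found in 13.6% of promoters. The Fmod window held none of the 5 motifs. TGACNNNGC, found in 12.4% of promoters, and TGANTCA, found in 7.8%, were in none of the 6 members' windows, and CAGACA, found in 21% of promoters, was in those of Prelp and Podn. GC content was 63.7% for Bgn, 51.0% for Fmod, 42.3% for Ogn and 31.0% for Aspn, beside a median of 52.7% over all promoters. A match describes these letters only.

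The tissues were first set beside each other in vehicle mice, to show where each gene is expressed. Deposited FPKM values are scaled over all 60 libraries, so their sums ran from 209360 to 221321 in Hyp, from 228097 to 283378 in iWAT and from 554304 to 675792 in SkM. Rescaling every library to the same sum (TPM) moved the median gene by up to 1.55 on the log2 scale between a pair of tissues, and tissue orders that turn under TPM are given below. By FPKM, the members were highest in white fat and lowest in Hyp, apart from Fmod, which was highest in SkM and lowest in BAT, and Aspn, which was lowest in Liv. Under TPM, Fmod was highest in eWAT, Prelp was lowest in SkM and Ogn was lowest in Liv. Of the 119 member and tissue-pair comparisons that could be tested (limma on log2(FPKM + 0.1), Benjamini-Hochberg adjustment over all genes), 101 passed an adjusted p of 0.05, against 56.1% to 88.3% of all genes, so the members' share is near that of genes in general.

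Among class I genes, Dcn averaged 198 ± 27.0 FPKM in eWAT, 77.7 ± 22.0 in iWAT, 60.01 ± 11.7 in SkM, 46.7 ± 10.5 in BAT, 45.5 ± 4.55 in Liv and 1.91 ± 0.693 in Hyp (SD, n = 5 each, as for all levels here). Dcn was higher in eWAT than in iWAT by 1.39 on the log2 scale (limma adjusted p = 0.000379) and higher in Liv than in Hyp by 4.57 (limma adjusted p = 1.11e-09), while neighbours from iWAT to Liv in that order did not differ beyond their spread (limma adjusted p 0.0872 to 0.934). Under TPM, Dcn in iWAT exceeded SkM by 1.59 on the log2 scale (limma adjusted p = 1.67e-05). SkM and BAT exchange places under TPM, and with each mouse as a block the iWAT and SkM levels differed (limma adjusted p = 0.0369). Bgn followed a similar order with more liver and less muscle: 122 ± 15.2 FPKM in eWAT, 51.9 ± 6.57 in iWAT, 30.5 ± 5.30 in Liv, 30.0 ± 11.6 in BAT, 9.34 ± 1.09 in SkM and 1.43 ± 0.501 in Hyp. Each step in Bgn's order passed the test except that between Liv and BAT (limma adjusted p = 0.745), which turns under TPM. Aspn did not differ beyond its spread between neighbouring fat depots by FPKM, at 14.7 ± 2.18 FPKM in eWAT, 12.7 ± 3.49 in iWAT and 12.2 ± 3.53 in BAT, and was 8.44 ± 0.617 in SkM, lower than in BAT (BAT over SkM 0.49 on the log2 scale, limma adjusted p = 0.0218). Under TPM it was lower in BAT than in iWAT (BAT over iWAT -0.92 on the log2 scale, limma adjusted p = 0.00359). Aspn was at 0.283 ± 0.0788 FPKM in Hyp and was nearly undetected in liver, where 0 to 2 reads fell on it in each of the 10 libraries. Aspn was under the filter of a mean of 0.5 FPKM in both Hyp and Liv, so it was not tested there.

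**Figure D1:**
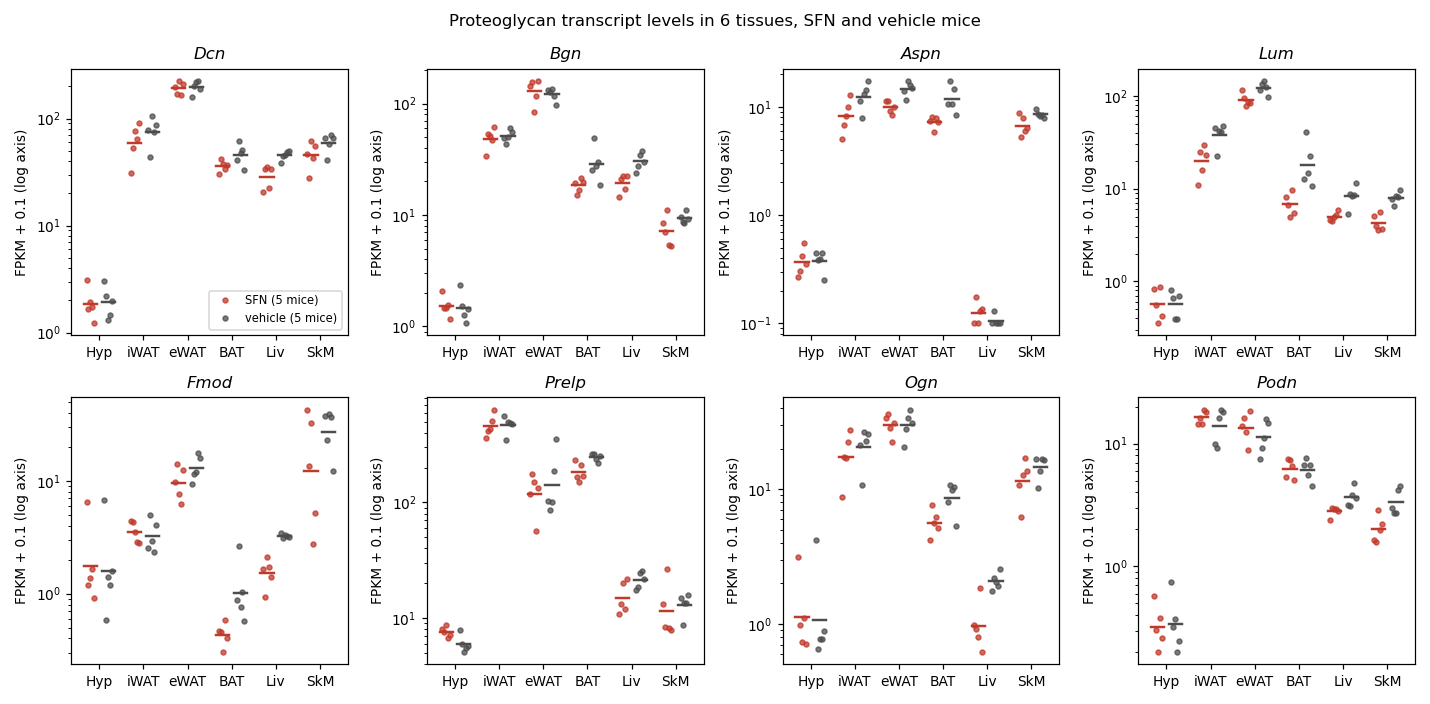
FPKM of the 8 genes in each of the 6 tissues on a log axis, with SFN left of vehicle in each pair, 1 point per mouse and a bar at the geometric mean of FPKM + 0.1. Aspn spans the widest range, from 0 to 0.0737 FPKM in liver to 8.36 to 17.4 FPKM in eWAT.

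Class II genes did not share 1 order. Lum was 123 ± 19.2 FPKM in eWAT, 39.3 ± 9.93 in iWAT, 20.2 ± 12.4 in BAT, 8.42 ± 2.18 in Liv, 7.96 ± 1.14 in SkM and 0.494 ± 0.191 in Hyp. The Liv and SkM levels of Lum did not differ beyond their spread (0.05 on the log2 scale, limma adjusted p = 0.797), and the step between iWAT and BAT (limma adjusted p = 0.0185) was lost with the mouse as a block (limma adjusted p = 0.0606). Fmod, which is abundant in tendon, was highest in SkM at 29.8 ± 11.7 FPKM, followed by eWAT at 13.2 ± 3.40, iWAT at 3.27 ± 1.12, Liv at 3.17 ± 0.123, Hyp at 2.22 ± 2.54 and BAT at 1.08 ± 0.838. SkM exceeded eWAT for Fmod by 1.08 on the log2 scale (limma adjusted p = 0.00823), which turns to -0.29 under TPM (limma adjusted p = 0.398), and neighbours from iWAT down to BAT did not differ beyond their spread by FPKM. Under TPM, iWAT exceeded Liv for Fmod by 1.12 on the log2 scale (limma adjusted p = 0.000947). The Fmod step of Liv over Hyp, 1.03 on the log2 scale, turns to -0.35 under TPM (limma adjusted p = 0.542). Hyp exceeded BAT for Fmod by 1.82 under TPM (limma adjusted p = 0.0215). Prelp was the most abundant member of the family in iWAT, BAT and Hyp: it reached 475 ± 76.4 FPKM in iWAT, 248 ± 18.3 in BAT, 166 ± 112 in eWAT, 21.6 ± 3.56 in Liv, 13.2 ± 2.73 in SkM and 5.93 ± 1.10 in Hyp. BAT and eWAT did not differ beyond their spread for Prelp (BAT over eWAT 0.80 on the log2 scale, limma adjusted p = 0.0526). That order turns under TPM, to -0.19 (limma adjusted p = 0.622). The Prelp step of SkM over Hyp, 1.13 on the log2 scale (limma adjusted p = 5.21e-05), turns to -0.40 under TPM (limma adjusted p = 0.0619).

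Ogn, of class III, was 30.4 ± 6.83 FPKM in eWAT, 21.4 ± 6.39 in iWAT, 14.7 ± 2.83 in SkM, 8.79 ± 2.22 in BAT, 2.00 ± 0.309 in Liv and 1.35 ± 1.52 in Hyp. SkM exceeded BAT by 0.76 on the log2 scale (limma adjusted p = 0.00577, 0.162 under TPM), and BAT exceeded Liv by 2.05 (limma adjusted p = 1.12e-06), while the other neighbours did not pass. Under TPM, Ogn in iWAT exceeded SkM by 1.74 (limma adjusted p = 1.4e-05) and eWAT exceeded iWAT by 0.67 (limma adjusted p = 0.0283). With the mouse as a block Ogn was higher in iWAT than in SkM (limma adjusted p = 0.0104). Podn, of class V, was 14.3 ± 4.54 FPKM in iWAT, 11.6 ± 3.53 in eWAT, 6.07 ± 1.20 in BAT, 3.59 ± 0.668 in Liv, 3.33 ± 0.845 in SkM and 0.277 ± 0.215 in Hyp. The white depots did not differ for Podn (limma adjusted p = 0.364, 0.0313 with the mouse as a block), nor did Liv and SkM (limma adjusted p = 0.534). Pair by pair and in either direction, members passed in 7 of 8 for iWAT over Hyp (83% of all genes), 8 of 8 for eWAT over Hyp (85.1%), 7 of 8 for BAT over Hyp (85.7%), 5 of 7 for Liv over Hyp (88.3%) and 8 of 8 for SkM over Hyp (87.7%). Within fat they passed in 5 of 8 for eWAT over iWAT (56.1%), 7 of 8 for BAT over iWAT (60.8%) and 6 of 8 for BAT over eWAT (75.1%). Liver gave 7 of 8 over iWAT (75.3%), 8 of 8 over eWAT (80.4%) and 6 of 8 over BAT (76.4%). Muscle gave 6 of 8 over iWAT (80.5%), 8 of 8 over eWAT (83.7%), 7 of 8 over BAT (79.5%) and 6 of 8 over Liv (83.4%).

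The genes with the pattern most like each member were named by Pearson's r of log2(FPKM + 0.1) over the 60 libraries, among 14005 protein-coding genes. These points share 6 tissues and 10 mice, so r is a description. Lum was nearest to Loxl2, a collagen cross-linking oxidase (r = 0.97), and Ifi211 (r = 0.97), Dcn to Slc43a3 and Itgb1, the beta-1 integrin (r = 0.97 each, 0.90 for Itgb1 under TPM), and Bgn to Ifi204 and Rsu1 (r = 0.98 each, 0.91 for Rsu1 under TPM). Fmod had no close match (r = 0.84 with Ifngr2 and with Tpr, 0.82 and 0.62 under TPM). Ogn was nearest to Igfbp6, an IGF-binding protein (r = 0.97), and Plp2 (r = 0.95). Prelp was nearest to Sod3, the extracellular superoxide dismutase (r = 0.98), and Car5b (r = 0.97). Aspn was nearest to Vamp3 and Ano6 (r = 0.98 each, 0.94 and 0.93 under TPM), and Podn to Phf11d and Rras (r = 0.96 each).

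SFN was then compared with vehicle within each tissue, which asks how each organ's matrix transcripts stood after a week of treatment. In liver, 5 of the 7 members tested fell (Fmod, Ogn, Lum, Dcn and Bgn), where 6.19% of all genes tested fell and 6.89% rose. In the other 5 tissues no member passed the adjusted test in either direction. Over all tissues, 34 of the 45 fold changes tested were below 0, where 45.4% to 54.7% of all genes were below 0 by tissue. The median member change was -0.67 on the log2 scale in Liv, -0.62 in BAT, -0.39 in SkM, -0.16 in iWAT, -0.14 in eWAT and 0.05 in Hyp, beside medians over all genes between -0.02 and 0.01. In these whole-tissue libraries, fewer cells of a type and less RNA per cell cannot be told apart.

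**Figure D2:**
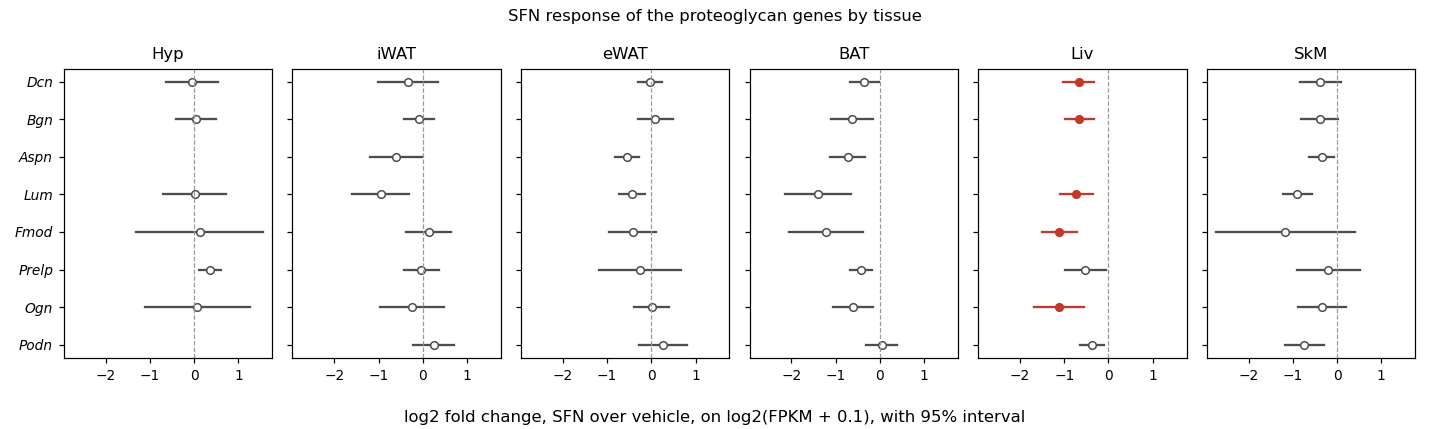
Log2 fold change of SFN over vehicle for the 8 genes in each tissue, with its 95% interval (limma, 5 mice a group), where filled red points passed an adjusted p of 0.05. The red points are the 5 genes that fell in liver, between -1.12 and -0.66, and most BAT points also lie below 0 without passing.

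Fmod fell furthest in proportion to its spread in liver. It had 1.54, 0.840, 2.02, 1.62 and 1.31 FPKM in SFN livers, against 3.35, 3.02, 3.21, 3.15 and 3.11 FPKM in vehicle livers, so the groups did not overlap and the vehicle values lay close together. The change was -1.11 on the log2 scale (SE 0.18, limma adjusted p = 0.00683). These levels rest on 32 to 97 reads in SFN and 123 to 145 reads in vehicle libraries. Lum had 4.51, 4.36, 4.85, 5.08 and 5.82 FPKM in SFN livers, against 5.28, 8.61, 8.28, 8.50 and 11.4 FPKM in vehicle livers. Vehicle mouse 1 lay inside the SFN range. Lum changed by -0.73 (SE 0.17, limma adjusted p = 0.0223). Prelp did not pass: it averaged 15.5 ± 5.08 FPKM in SFN and 21.6 ± 3.56 FPKM in vehicle livers (log2 change -0.52, 95% interval -0.97 to -0.07, limma adjusted p = 0.117), with SFN mice 8 and 10 inside the vehicle range.

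Dcn and Bgn, the abundant class I members of liver, fell by similar amounts. Dcn had 20.5, 33.4, 35.4, 22.2 and 33.8 FPKM in SFN livers, against 38.5, 44.4, 45.5, 48.7 and 50.1 FPKM in vehicle livers, a change of -0.67 (SE 0.16, limma adjusted p = 0.0236). Bgn had 14.5, 20.8, 22.4, 17.0 and 22.2 FPKM in SFN livers, against 23.9, 27.4, 34.4, 37.1 and 29.7 FPKM in vehicle livers, a change of -0.66 (SE 0.15, limma adjusted p = 0.0204). Neither gene's groups overlapped, and SFN mice 6 and 9 were the lowest for both. Ogn had 0.889, 0.811, 0.696, 1.74 and 0.520 FPKM in SFN livers, against 1.66, 2.09, 1.97, 1.81 and 2.47 FPKM in vehicle livers. SFN mouse 9, low for Dcn and Bgn, was the high one for Ogn and the only SFN value within the vehicle range. The change of Ogn was -1.12 (SE 0.25, limma adjusted p = 0.0203), on 16 to 65 reads in SFN and 51 to 78 in vehicle libraries.

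Podn had 2.26, 2.91, 2.85, 2.82 and 2.71 FPKM in SFN livers, against 3.04, 2.99, 3.74, 4.64 and 3.53 FPKM in vehicle livers. The groups did not overlap, yet Podn missed the threshold (log2 change -0.38, SE 0.12, limma adjusted p = 0.0677), which it passed under TPM (limma adjusted p = 0.0444) and in DESeq2 on recovered reads (adjusted p = 0.0363). At an unadjusted p of 0.05, 15.7% were lower, against 7 of 7 members. Groups did not overlap downward for 5.8% of genes, against 4 of 7 members. edgeR called 5 members lower (6.5% of all genes) and DESeq2 called 6 (9.44%). The count of 5 dropped to 3 without vehicle mouse 5 (Dcn, adjusted p = 0.0593, and Ogn, 0.0530, by limma), and to 4 without vehicle mouse 4 (Dcn) or without SFN mouse 7 (Lum).

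**Figure D3:**
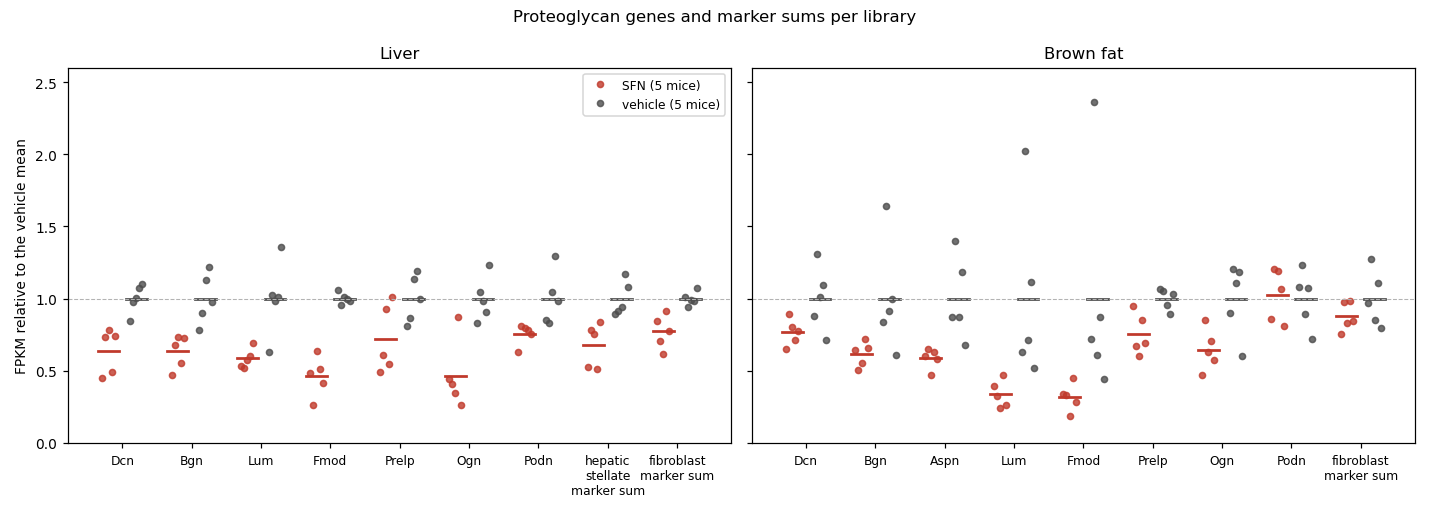
FPKM of each gene relative to its vehicle mean (set at 1) in liver and BAT, SFN left of vehicle, 1 point per mouse. In liver the SFN points of Dcn, Bgn, Fmod and Podn lie wholly below the vehicle points, and in BAT vehicle mouse 2 stands high for Lum, Fmod and Bgn.

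The stromal cell markers of liver moved in the same direction. Of 15 fibroblast genes, 11 were tested, all 11 changes were below 0 and 5 passed (Gsn, Fstl1, Dpt, Tcf21 and Pdgfra), with a summed level of 245 to 367 FPKM in SFN livers, against 377 to 431 FPKM in vehicle livers. Of 6 hepatic stellate cell genes all were tested and below 0, and 2 fell, Reln (-0.83, limma adjusted p = 0.00258) and Colec11 (-0.67, limma adjusted p = 0.0236). The stellate sum was 66.0 to 108 FPKM in SFN and 115 to 151 FPKM in vehicle livers, so both sums separated the groups. None of their genes was at 0 in all liver libraries. Only 7 of the 15 fibroblast genes reached a mean of 1 FPKM in liver, against 6 of 6 stellate genes, so the fibroblast sum rests mainly on those 7. Of 5 mural cell genes tested, 2 fell (Pdgfrb and Acta2). The sum of 10 lymphocyte genes also separated the groups, at 5.81 to 8.58 FPKM in SFN and 9.89 to 21.8 FPKM in vehicle livers. Only 1 of those 10 reached a mean of 1 FPKM in liver, and of 4 tested 1 fell. The hepatocyte sum overlapped between the groups, at 47378 to 72290 FPKM in SFN and 61383 to 69884 FPKM in vehicle livers. The part of these cells in the members' change was not tested.

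Lists of genes that work with the members were set beside them in liver, where 6.19% of all genes were called lower and 6.89% higher by limma. Of 14 fibrillar collagens and fibril partners tested, 8 fell: Col1a1 (-1.41), Col14a1 (-1.27), Col1a2 (-1.18), Col3a1 (-1.03), Col6a3 (-0.91), Tnxb (-0.85), Col5a1 (-0.61) and Col6a2 (-0.57), while fibronectin, Fn1, a major secreted product of hepatocytes, rose (0.85), all on the log2 scale with limma adjusted p from 0.000626 to 0.0333. Col1a1 averaged 4.19 ± 1.53 FPKM in SFN and 10.9 ± 2.20 FPKM in vehicle livers. Of 17 enzymes of the glycosaminoglycan chains that decorin and biglycan carry, the xylosyltransferase Xylt2 (0.29) and the linkage enzyme B3gat3 (0.36) rose and Papss2 (-0.72), which makes the sulfate donor, fell. None of 6 keratan sulfate enzymes passed, by limma, with 0 of them past an unadjusted p of 0.05. Of 17 receptors and ligands, the endocytic receptor Lrp1 (0.49) rose, and Itgb1 (-0.24), the TGF-beta receptor Tgfbr2 (-0.74) and Bmp4 (-0.76) fell. Of 5 matrix proteases and procollagen processors, Bmp1 rose (0.42) and Mmp2 (-0.82) and the enhancer Pcolce (-0.67) fell. None of 4 other family genes tested passed in limma, of which Omd averaged 1.505 ± 0.483 FPKM in SFN and 2.39 ± 0.845 FPKM in vehicle livers (limma adjusted p = 0.167).

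In BAT no member passed the adjusted test by limma, where 0% of all genes were called lower and 0.0075% higher, but 7 of 8 members were lower at an unadjusted p of 0.05, beside 7.08% of all genes. Lum had 7.94, 6.60, 4.91, 9.53 and 5.38 FPKM in SFN BAT, against 12.8, 40.8, 14.5, 22.5 and 10.5 FPKM in vehicle BAT. The groups did not overlap for Lum and vehicle mouse 2 was far above the rest. The change was -1.40 (95% interval -2.15 to -0.66, limma adjusted p = 0.105), or -1.11 without vehicle mouse 2. Aspn had 7.35, 7.95, 5.73, 7.74 and 7.09 FPKM in SFN BAT, against 10.6, 17.1, 10.6, 14.5 and 8.28 FPKM in vehicle BAT, again with no overlap (log2 change -0.72, 95% interval -1.12 to -0.33, limma adjusted p = 0.111). Groups did not overlap downward for 1.62% of all genes. Fmod had 0.365, 0.358, 0.203, 0.486 and 0.305 FPKM in SFN BAT, against 0.775, 2.55, 0.654, 0.940 and 0.476 FPKM in vehicle BAT, on 10 to 23 reads in SFN libraries (log2 change -1.22, limma adjusted p = 0.18, and -0.87 without vehicle mouse 2).

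The other BAT members overlapped between groups. Prelp averaged 186 ± 35.1 FPKM in SFN and 248 ± 18.3 FPKM in vehicle BAT (-0.43, 95% interval -0.68 to -0.17, limma adjusted p = 0.146). Bgn averaged 18.5 ± 2.56 FPKM in SFN and 30.0 ± 11.6 FPKM in vehicle BAT (-0.63, limma adjusted p = 0.213), and Ogn 5.68 ± 1.26 FPKM in SFN and 8.79 ± 2.22 FPKM in vehicle BAT (-0.60, limma adjusted p = 0.207). Dcn averaged 35.8 ± 4.28 FPKM in SFN and 46.7 ± 10.5 FPKM in vehicle BAT (-0.36, limma adjusted p = 0.285). Podn was the only one of the 8 with a change not below 0, at 6.23 ± 1.10 FPKM in SFN and 6.07 ± 1.20 FPKM in vehicle BAT (0.04, 95% interval -0.31 to 0.39). DESeq2 on recovered reads called 6 BAT members lower (Lum, Fmod, Aspn, Bgn, Ogn and Prelp), beside 2.37% of all genes, and edgeR called none, beside 0.161%. No fibroblast marker passed in BAT by limma and 10 of 14 tested were lower at an unadjusted p of 0.05, with a summed level of 932 to 1215 FPKM in SFN and 982 to 1573 FPKM in vehicle BAT. Of 20 fibril partners tested, none passed by limma and 13 were lower at an unadjusted p of 0.05, including Col3a1 (69.1 ± 12.2 FPKM in SFN and 158 ± 67.4 FPKM in vehicle BAT, limma adjusted p = 0.120). Without vehicle mice 2 and 3, the libraries high in tendon cell genes, the BAT change of Dcn was -0.21 and that of Bgn -0.38. In that fit 7 members were tested, as Fmod fell under the filter. Over 19 alternative fits, that one among them, the change nearest 0 was -1.11 for Lum, -0.59 for Aspn, -0.44 for Ogn and -0.35 for Prelp. Podn lay between -0.07 and 0.12 in those fits. Markers of other cell types also differed in BAT. The summed adipocyte genes were 2351 to 2618 FPKM in SFN and 1870 to 2160 FPKM in vehicle BAT. The summed lymphocyte genes were 8.56 to 18.5 FPKM in SFN and 24.5 to 39.7 FPKM in vehicle BAT, so both sums separated the groups. Only 2 of the 10 lymphocyte genes reached a mean of 1 FPKM in BAT, against 7 of 7 adipocyte genes. The part of these cells in the members' values was not tested.

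In SkM no member passed by limma, as no gene did in either direction (0% lower, 0% higher), while 3 of 8 members were lower at an unadjusted p of 0.05, beside 8.02% of all genes. Lum had 4.98, 3.88, 3.44, 5.47 and 3.56 FPKM in SFN muscle, against 7.55, 6.43, 8.34, 7.95 and 9.54 FPKM in vehicle muscle. It was the only member without overlap, beside 1.69% of all genes. The Lum change was -0.90 (95% interval -1.22 to -0.57, limma adjusted p = 0.116). That adjusted p equals the smallest of any gene in SkM. Podn had 1.53, 1.47, 2.78, 1.88 and 2.11 FPKM in SFN muscle, against 2.91, 2.64, 2.63, 4.05 and 4.42 FPKM in vehicle muscle, with SFN mouse 8 inside the vehicle range (-0.74, 95% interval -1.19 to -0.30, limma adjusted p = 0.228). Both were called by DESeq2 (0.95% of all genes) and neither by edgeR (0.016%). Fmod spread most in muscle, at 43.0, 13.4, 32.3, 2.67 and 5.13 FPKM in SFN, against 37.6, 23.0, 39.0, 36.9 and 12.2 FPKM in vehicle muscle (-1.17, 95% interval -2.73 to 0.40, limma adjusted p = 0.491). Aspn averaged 6.73 ± 1.42 FPKM in SFN and 8.44 ± 0.617 FPKM in vehicle muscle (-0.34, limma adjusted p = 0.309), and Dcn, Bgn, Ogn and Prelp had log2 changes between -0.39 and -0.20. SFN mice 9 and 10, the lowest for Fmod, also had the lowest sums of 8 tendon cell genes, 24.6 and 27.1 FPKM, where SFN libraries spanned 24.6 to 63.9 FPKM and vehicle libraries 56.1 to 86.0 FPKM. No tendon cell gene was at 0 in all muscle libraries, 5 of 7 tested were below 0 in log2 change, and the part of tendon in the Fmod values was not tested. Other lists also ran lower in muscle. Of 14 fibroblast genes tested, 13 were below 0, with 7 lower and 1 higher at an unadjusted p of 0.05 by limma. Of 19 fibril partners tested, 17 were below 0 and 12 were lower at that p. Kera (keratocan), a neighbour of Lum in the genome, averaged 0.463 ± 0.572 FPKM in SFN and 2.06 ± 1.10 FPKM in vehicle muscle (-2.33, limma adjusted p = 0.228).

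**Figure D4:**
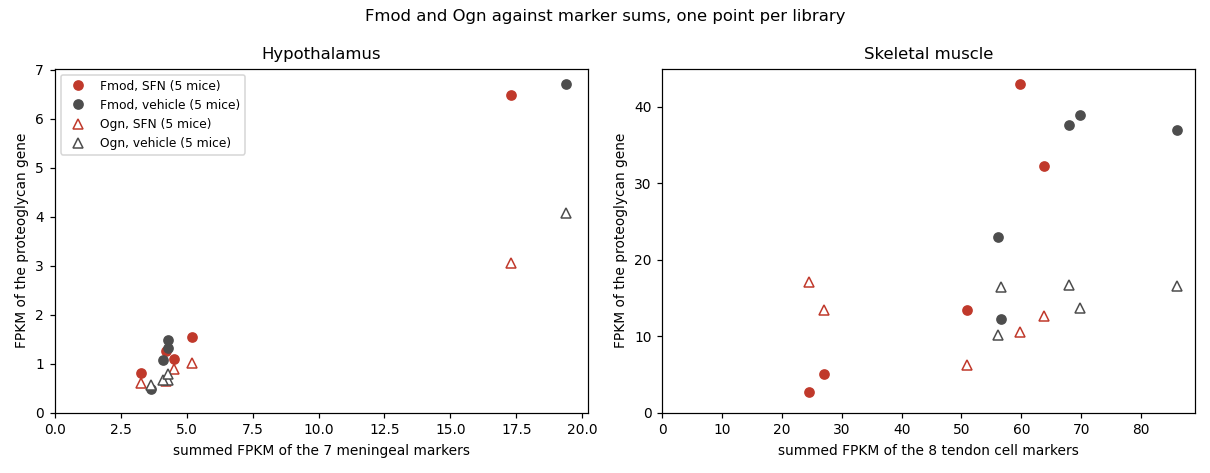
Fmod and Ogn FPKM against the summed FPKM of meningeal fibroblast markers in Hyp and of tendon cell markers in SkM, 1 point per library, SFN and vehicle marked. In Hyp both genes are high only in SFN mouse 6 and vehicle mouse 1, which also have the highest marker sums, 17.3 and 19.4 FPKM, and in SkM the SFN libraries with the lowest tendon sums have the lowest Fmod.

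In the white depots the members with the lowest unadjusted p were Lum and Aspn. In eWAT, where 0.0431% of genes were lower and 0.165% higher by limma, Aspn had 11.3, 11.2, 9.14, 8.36 and 9.79 FPKM in SFN mice, against 13.9, 11.5, 17.4, 15.8 and 14.96 FPKM in vehicle mice, without overlap (-0.56, 95% interval -0.82 to -0.29, limma adjusted p = 0.0896). It was the only eWAT member without overlap, beside 1.65% of all genes. Lum averaged 91.1 ± 14.5 FPKM in SFN and 123 ± 19.2 FPKM in vehicle eWAT (-0.44, 95% interval -0.74 to -0.13, limma adjusted p = 0.201). Both passed an unadjusted p of 0.05 downward, beside 5.71% of genes, and both were called by DESeq2, beside 1.7%, and not by edgeR, beside 0.0587%. Prelp changed by -0.26 in eWAT (95% interval -1.19 to 0.67, limma adjusted p = 0.819), with its highest value, 353 FPKM, in vehicle mouse 5. The summed adipocyte markers of that library were 3745 FPKM, against 892 to 2029 FPKM in the other vehicle mice. The part of adipocytes in the Prelp values was not tested. Dcn, Ogn and Bgn lay close to 0 in eWAT, with log2 changes of -0.03 (95% interval -0.31 to 0.25), 0.01 (95% interval -0.38 to 0.40) and 0.09 (95% interval -0.31 to 0.49). Fmod changed by -0.43 (limma adjusted p = 0.473) and Podn by 0.26 (limma adjusted p = 0.668). Of the partners, Col6a3 fell in eWAT (-0.91, limma adjusted p = 0.0295). Cell type markers also moved in eWAT. Of 9 macrophage genes tested, 0 were below 0 and 2 were called higher by limma. Their summed level was 5147 to 8446 FPKM in SFN and 2526 to 5329 FPKM in vehicle eWAT, which overlap. Of 15 fibroblast genes tested, 13 were below 0 and 0 were called by limma. The part of these cells in the eWAT values was not tested.

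In iWAT, where 0.00707% of genes were lower and 0% higher by limma, Lum had 10.7, 24.7, 15.9, 29.5 and 23.2 FPKM in SFN mice, against 44.6, 22.3, 41.5, 40.7 and 47.6 FPKM in vehicle mice. Vehicle mouse 2 was the only vehicle library inside the SFN range (-0.95, 95% interval -1.60 to -0.31, limma adjusted p = 0.416). Aspn averaged 8.51 ± 3.01 FPKM in SFN and 12.7 ± 3.49 FPKM in vehicle iWAT (-0.60, limma adjusted p = 0.596), and changed by -0.29 without SFN mice 6, 7 and 8 and vehicle mouse 2, iWAT libraries that also stood apart. These 2 members were lower at an unadjusted p of 0.05, beside 5.62% of genes, and none was without overlap, beside 0.983%. DESeq2 called Lum alone, beside 0.906% of genes, and edgeR none, beside 0%. Prelp, the most abundant member there, was at 469 ± 107 FPKM in SFN and 475 ± 76.4 FPKM in vehicle iWAT (-0.03, 95% interval -0.43 to 0.37). The changes of Dcn (-0.34), Ogn (-0.24), Bgn (-0.09), Fmod (0.13) and Podn (0.25) in iWAT had limma adjusted p between 0.714 and 0.84.

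In Hyp the members were low and 6 of 8 were tested. None passed by limma, as no gene did (0% lower, 0% higher), and none was lower at an unadjusted p of 0.05, beside 2.92% of genes, or without overlap, beside 0.412%. edgeR and DESeq2 called none, beside 0% and 0.0659% of genes. Prelp was the only member with a higher value at an unadjusted p of 0.05, at 8.01, 7.44, 8.65, 6.58 and 7.01 FPKM in SFN, against 7.81, 5.84, 4.98, 5.41 and 5.60 FPKM in vehicle Hyp (0.35, 95% interval 0.10 to 0.60, limma adjusted p = 0.694). Fmod was 6.48 FPKM in SFN mouse 6 and 0.813 to 1.55 FPKM in the other SFN mice, against 6.71 FPKM in vehicle mouse 1 and 0.486 to 1.48 FPKM in the other vehicle mice. Ogn was 3.05 FPKM in SFN mouse 6 and 4.07 FPKM in vehicle mouse 1. These are the libraries with the high meningeal marker sums, and no member was called without them by limma.

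Whether a member's SFN response differed between SkM and another tissue was tested as an interaction, and no member passed by limma in any of the 5 pairs with SkM, where 0.0438% of all genes passed against Hyp, 0% against iWAT, 0.0793% against eWAT, 0.00857% against BAT and 6.97% against Liv. Podn had the smallest unadjusted p, with an SFN change in SkM that differed from that in iWAT by -0.99 (95% interval -1.62 to -0.35, limma adjusted p = 0.427), from eWAT by -1.01 (limma adjusted p = 0.208) and from BAT by -0.78 (limma adjusted p = 0.279). Lum differed least from iWAT, by 0.06 (95% interval -0.65 to 0.77, limma adjusted p = 0.975). The difference between SkM and Liv was -0.06 for Fmod, with a wide interval (95% interval -1.68 to 1.56), and 0.77 for Ogn (95% interval 0.01 to 1.54, limma adjusted p = 0.206). Liver was set against SkM alone in this test, so whether its calls are particular to liver was not tested.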

How the data were processed

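Poly(A) libraries were made from Trizol RNA of 6 tissues of 10 mice. The authors mapped and counted the reads (builds named in their processing notes: mm10, GRCm38; aligner and counting strand not given in the sources used here) and deposited FPKM per gene for all 60 libraries. The values are scaled by a size factor for each library, and how the authors set that factor was not tested. Their per-tissue tables hold deposited read counts and gene lengths, used to derive each library's scaling and to check the recovered reads. The fold changes, p-values and normalized columns of those tables were not used. Whole reads were recovered from FPKM and gene length for 98.6% of the 38197 genes above 0 (within 0.01 of a read). Among genes so recovered, 146080 known counts were compared and 0 differed. The same counts had set the library scaling, so this agreement is partly built in.

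Within each tissue, SFN was compared with vehicle by limma 3.58.1 (R 4.3.3, trend) on log2(FPKM + 0.1) over genes whose mean reached 0.5 FPKM, so fold changes of low genes are understated, with Benjamini-Hochberg adjustment over all genes and a threshold of 0.05. edgeR 4.0.16 and DESeq2 1.42.0 on recovered reads were alternatives, with other pseudocounts, filters, scalings and left-out libraries. Replicates are separate mice. The labels give each library a mouse id, shared by 1 library of each tissue, which pairs tissues (median correlation of deviations 0.01 to 0.11), so the mouse was a block in an alternative. All 8 members are named in each tissue. From the pathway lists the called genes are named, and where none was called at most 2 a list with the smallest p. The 2 most alike genes per member are named. Marker genes are named only where their list bears on a result. Members and lists were chosen with earlier results of these data known. The marker behind a planned exclusion of 4 iWAT libraries is not reported here. Scripts were tested on simulated data. Sequences are from RefSeq.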

Additional observations from a re-analysis of the deposited data

Results flagged for a closer look

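Within a group of 5 mice, a value was singled out where its gap to the nearest mouse exceeded 0.71 of the group's range (Dixon's criterion). This held in 7 of 88 groups, where chance gives about 1 in 20. Fmod in hypothalamus stood apart in SFN mouse 6 (6.48 FPKM, next 1.55) and in vehicle mouse 1 (6.71 FPKM, next 1.48), and Ogn stood apart in the same libraries (3.05 FPKM in SFN mouse 6, next 1.01, and 4.07 FPKM in vehicle mouse 1, next 0.782). In brown fat, Fmod was 2.55 FPKM in vehicle mouse 2, next 0.940. In inguinal fat, Lum was 22.3 FPKM in vehicle mouse 2, next 40.7. In muscle, Prelp was 26.7 FPKM in SFN mouse 8, next 13.2.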

How the results depend on the processing

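The liver count of 5 members called lower was 5 or 6 under the other pseudocount, filters, scalings and tools, and 3 to 5 with 1 library left out. DESeq2 on recovered reads, unlike limma, called 1 member in iWAT, 2 in eWAT, 6 in BAT and 2 in SkM (0 in limma for each), and 65 pathway genes against 20. The cause was not tested. With 1 library left out, counts stayed at 0 in Hyp, iWAT, eWAT, BAT and SkM, member changes below 0 numbered 32 to 37, pathway calls 15 to 20 and tissue-pair calls 97 to 105. With the mouse as a replicate block, 102 tissue-pair comparisons passed (101 without it), and 0 interactions passed with or without it. Apart from the neighbours named above, the block changed the call for Dcn between BAT and iWAT (limma adjusted p = 0.0183, 0.0505 with the block). Of 786 alternative values of the 45 member fold changes, 736 kept their direction and none reversed a called change. Removing the libraries with meningeal, myofibre or tendon cell transcripts, and every alternative for the pathway lists, was chosen after seeing the data. Low read numbers limit Fmod in BAT and Ogn in liver, and Aspn in liver was under the filter; without a filter, 8 members were tested in liver and 5 were called.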

Other observations

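The members' variation from mouse to mouse was compared within each tissue. Pearson's r between members was taken over deviations of log2(FPKM + 0.1) from the group mean, over the 10 libraries of a tissue, which share their depth and cell makeup, so r is a description. The median over pairs was 0.74 in hypothalamus (15 pairs, all above 0), 0.71 in inguinal fat, 0.60 in brown fat and 0.35 in epididymal fat and in muscle (28 pairs each), and 0.19 in liver (21 pairs, 14 above 0). These medians changed without the libraries that stood apart, a choice made after seeing the data. They were 0.30 in inguinal fat (without SFN mice 6, 7 and 8 and vehicle mouse 2) and 0.28 in hypothalamus (without SFN mouse 6 and vehicle mouse 1). In brown fat the median was 0.40 without vehicle mice 2 and 3, and 0.71 without the myofibre libraries, SFN mouse 7 and vehicle mouse 3. In inguinal fat, r of Fmod with Ogn was -0.68 over 10 libraries and 0.51 over the 6 left, while for Dcn with Ogn it was 0.94 and 0.90. In brown fat, Lum ran with Fmod (r = 0.95, 0.90 without vehicle mice 2 and 3), and in liver Dcn ran with Bgn (r = 0.85) and Ogn against Prelp (r = -0.59).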
